A study of Homo sapiens with 2 samples.

Results

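ATF4 is a transcription factor that cells make when amino acids run short, and the 10 genes described here are targets it is known for. They are ASNS, PSAT1, PHGDH, SHMT2, MTHFD2, TRIB3, DDIT3, CHAC1, SESN2 and SLC7A11, taken by symbol from the 36601 genes of the count tables, and all 10 were found. They were read in RWPE1, an immortalized line of normal prostate epithelium, and in RWPE-ERG-mAKT, the same line carrying exogenous ERG and myristoylated AKT. ERG is an ETS-family transcription factor, and the myristoyl anchor holds AKT at the membrane in an active state. Single-cell RNA was captured at its 3' end in droplets and counted by unique molecular identifiers (UMIs), with 1 library for each condition from an input of 10000 cells.

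The labels describe the RWPE1 library as a vector control and the study's text calls it parental, so whether it carried a vector cannot be told apart here. According to the methods, both transgenes were delivered by retrovirus under drug selection, with ERG driven by the HNRNPA2B1 promoter, and the line was grown in serum-free keratinocyte medium. Cells with over 2500 detected genes and under 7.5% mitochondrial (MT-) UMIs were read. These were 9967 of 12504 barcodes of RWPE1 (192789925 UMIs, median 16972 per cell) and 14140 of 17355 barcodes of RWPE-ERG-mAKT (225121037 UMIs, median 13601 per cell). Median MT- content was 5.44% for RWPE1 cells but 2.73% for RWPE-ERG-mAKT cells. With 1 library per condition no test was made, and every 95% interval covers counting error only, so a difference between libraries cannot be told apart from a difference between cultures or preparations. Summed counts also cannot separate fewer expressing cells from less RNA per cell. Shares of cells at equal depth are given further on, but with so few UMIs per cell they cannot separate these either.

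The epithelial markers EPCAM, CDH1 and CDH3 summed to 287 CPM (counts scaled to a fixed library total) against 254 CPM, and none of them differed by 1.5-fold. Where values of both libraries stand side by side, that of RWPE1 comes first. Of 4 basal markers, KRT15 (110 and 56.5 CPM, log2 ratio -0.96) and TP63 (142 and 61.7 CPM, -1.20) were over 1.5-fold lower in RWPE-ERG-mAKT, while KRT5 (2081 and 2008 CPM) and KRT14 (1600 and 2191 CPM) were not. Of 3 luminal markers, KRT18 (1198 and 542 CPM, -1.14) and KRT19 (909 and 498 CPM, -0.87) were lower by that size, and KRT8 (450 and 329 CPM, -0.45) was not. Markers of endothelial, immune, neuroendocrine, microglial and choroid plexus cells summed, list by list, to at most 3.06 CPM in either library. The fibroblast list summed to 1.86 and 26.0 CPM, almost all of the latter from DCN at 23.1 CPM. Among the kept cells, 5 RWPE1 barcodes and 0 RWPE-ERG-mAKT barcodes held at least 2 UMIs of microglia or choroid plexus genes. ERG itself was at 1.44 CPM in the RWPE1 library and at 20.8 CPM in the other. RNA counted for AKT1, the AKT gene in the plasmid the methods name, was not higher, at 22.01 and 19.14 CPM (log2 ratio -0.20, -0.26 to -0.14), and these counts do not separate the transgene from the cell's own gene. The libraries shared 55 barcode sequences.

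When an uncharged tRNA activates the kinase GCN2, the initiation factor eIF2alpha is phosphorylated, general translation slows, and the ATF4 messenger is translated more. ATF4 then binds with C/EBP-family partners to a composite element and raises genes that make, import and charge amino acids, along with genes that restrain growth or promote cell death. Endoplasmic reticulum stress reaches the same factor through the kinase PERK. AKT is known for raising mTORC1, which also favours ATF4 translation. Because the control lies in translation, the level of the ATF4 messenger need not follow the protein.

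To show the kind of element these genes are known for, promoter windows from RefSeq on GRCh38.p14, running from 250 bases before to 50 bases after a start site, were searched on both strands for TGATGNAA, the core of the C/EBP-ATF element. The motif was in 1270 of 35116 windows (3.62%). Of the members, 8 had a window, and 2 of these held the motif, namely ASNS and CHAC1. The windows of PSAT1, PHGDH, MTHFD2, TRIB3, DDIT3 and SESN2 did not hold these letters, which says nothing of elements elsewhere in the genes, and SHMT2 and SLC7A11 had no entry. The first bases of the matches lay 68 bases before the start site in ASNS (chr7:97872458-97872487, minus strand) and 209 bases before it in CHAC1 (chr15:40953251-40953280, plus strand). Both matches lie in 5' UTR exons of longer transcripts of the same gene in the annotation used. DDIT3, which stood apart from the other members in level, is shown for a different element, searched after the values were seen. It held TGACTCA, the AP-1 site (1738 of 35116 windows, 4.95%), as a single site that both of its overlapping windows cover. This site lies 241 and 238 bases before the 2 listed start sites (chr12:57520738-57520764, minus strand). Of the 8 members with a window, only DDIT3 held these letters. The stretches are written 5' to 3' on the gene's strand, with the matched letters in capitals.
ASNS: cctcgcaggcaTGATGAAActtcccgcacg
CHAC1: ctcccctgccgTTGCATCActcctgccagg
DDIT3: gcgcgcgcaTGACTCAcccacctcctc
The CHAC1 letters are the reverse complement of the searched core. A match is a description of the letters and not a bound site.

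Of the 10 members, 9 were over 1.5-fold lower in RWPE-ERG-mAKT and 1, DDIT3, was over 1.5-fold higher. Over the 17995 genes whose UMIs in the libraries summed to at least 100, 32.1% were lower and 20.3% higher by that size. At 2-fold, 7 members were lower and 0 higher, against 18.8% and 11.1% of all genes. The median log2 ratio of the members was -1.56, and that of all genes was -0.16. When the ratios were centred on that median, 26.4% of all genes were lower and 25.6% higher, and 8 members were lower and 1 higher, with SHMT2 at a log2 ratio of -0.55 dropping under the 1.5-fold size. The UMIs of all members together came to 603 CPM and 267 CPM, a log2 ratio of -1.18 (95% interval -1.19 to -1.16). ATF4 itself was at 106 CPM and 114 CPM, a log2 ratio of 0.11 (0.08 to 0.14).

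**Figure D1:**
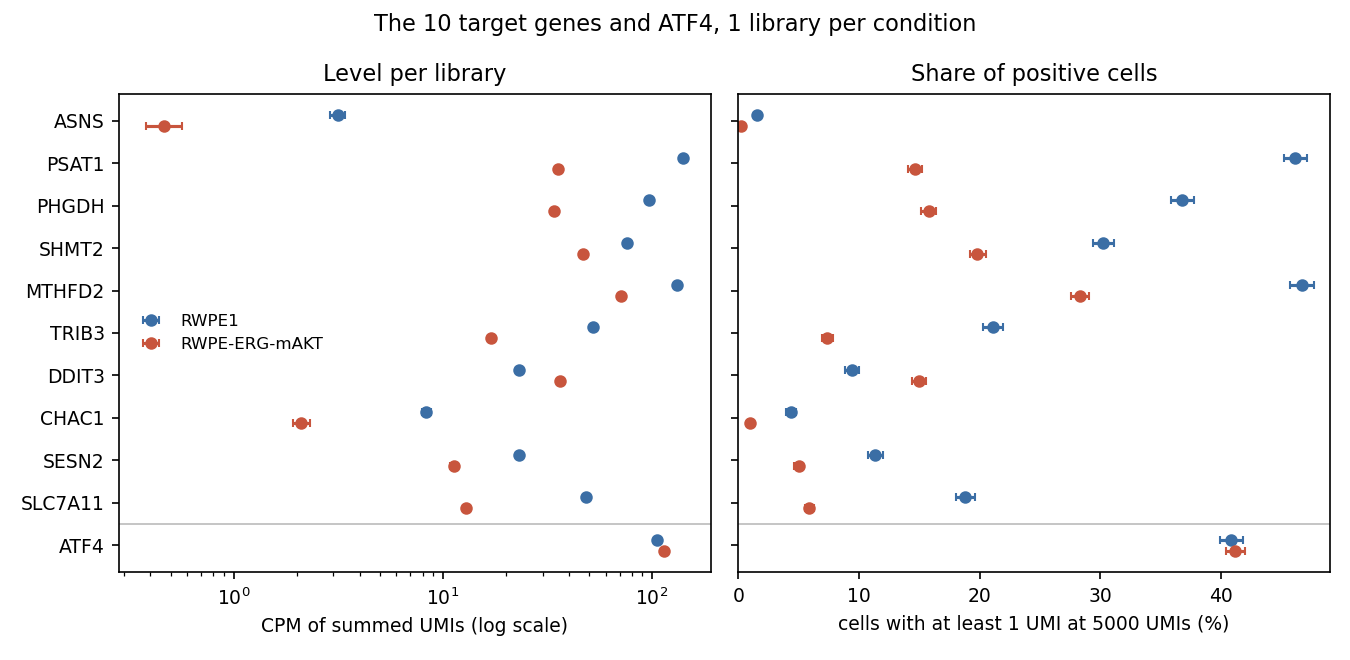
Left, CPM of each gene's summed UMIs on a log axis, and right, the percent of cells with at least 1 UMI after every cell was thinned to 5000 UMIs, in RWPE1 (blue) and RWPE-ERG-mAKT (red), with 95% intervals for counting error. In both panels 9 genes lie lower in RWPE-ERG-mAKT, DDIT3 lies higher (36.2 against 23.2 CPM), and the points of ATF4 lie next to each other.

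Serine synthesis branches off glycolysis at PHGDH, which oxidizes 3-phosphoglycerate, and PSAT1 carries out the next step by adding the amino group. PSAT1 was at 140 CPM in RWPE1 (139 to 142), and in RWPE-ERG-mAKT at 35.4 CPM (34.7 to 36.2), 3.96-fold lower in the latter. For PHGDH the levels were 96.7 CPM (95.4 to 98.1) and 34.1 CPM (33.4 to 34.9), 2.83-fold lower. The intervals did not overlap for either gene. PSPH, the enzyme of the last step and not a member, was at 26.7 and 23.1 CPM, so it fell short of the 1.5-fold size that both earlier steps passed.

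SHMT2 and MTHFD2 are the mitochondrial enzymes that take the one-carbon unit off serine and pass it on through folate. SHMT2 was at 75.9 CPM (74.7 to 77.2) and 46.6 CPM (45.7 to 47.5), 1.63-fold lower. MTHFD2 was at 132 CPM (130 to 133) and 70.9 CPM (69.8 to 72.0), 1.86-fold lower. These were the smallest differences among the 9 lower members. Of 11 other genes of serine, glycine and one-carbon metabolism, 3 were lower and 0 higher, with a median log2 ratio of -0.41. The share of lower genes here was not above the 32.1% of all genes. Among these were GLDC, which cleaves glycine (31.5 and 2.37 CPM, log2 ratio -3.73), and MTHFD1L, the mitochondrial formyltetrahydrofolate synthetase (134 and 73.1 CPM, -0.87). The cytosolic SHMT1 was at 32.2 and 23.1 CPM (-0.48).

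ASNS makes asparagine from aspartate and glutamine and is the textbook gene of this response. It was at 3.14 CPM (2.89 to 3.40, 605 UMIs) and 0.466 CPM (0.381 to 0.565, 105 UMIs), 6.73-fold lower, which is the largest ratio among the members on the smallest counts. The gene (chr7:97852118-97872542, minus strand) lies whole within the read-through gene AC079781.5 on the same strand in GENCODE release 29. Reads that both gene models hold cannot be given to either by the counter, so the ASNS count may hold only part of its reads. AC079781.5 was at 27.0 CPM and 13.2 CPM. With the UMIs of both models added, the levels were 30.2 and 13.7 CPM, a log2 ratio of -1.14 (-1.21 to -1.08) in place of -2.75. The direction was shared by ASNS and the read-through gene, and the size for ASNS alone is uncertain.

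Of 14 other amino acid enzymes, 8 were lower and 0 higher (median log2 ratio -0.90). ASS1, which joins citrulline and aspartate in arginine synthesis, was at 182 and 42.9 CPM (-2.09), the mitochondrial phosphoenolpyruvate carboxykinase PCK2 at 17.6 and 5.89 CPM (-1.58), and the alanine transaminase GPT2 at 18.2 and 7.35 CPM (-1.31). CBS, the first enzyme of transsulfuration, was at 0.965 and 0.244 CPM (-1.98).

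SLC7A11 exchanges glutamate for cystine and so feeds glutathione synthesis, and CHAC1 breaks glutathione down inside the cell. SLC7A11 was at 48.6 CPM (47.6 to 49.6) and 12.9 CPM (12.5 to 13.4), 3.76-fold lower. CHAC1 was at 8.31 CPM (7.91 to 8.73) and 2.11 CPM (1.92 to 2.31), 3.94-fold lower. The importer of the precursor and the enzyme that degrades the product had ratios whose log2 intervals overlapped (-1.97 to -1.85 and -2.13 to -1.83). SLC3A2, the heavy chain that carries SLC7A11 to the membrane, went the other way at 317 and 511 CPM (log2 ratio 0.69), and CHAC2, a relative of CHAC1, was at 13.2 and 27.6 CPM (1.07). SLC3A2 was picked out after its values were seen. Of 10 measured genes on the list of other amino acid transporters, 5 were lower and 2 higher (median -0.67), among them the glycine carrier SLC6A9 (5.70 and 1.71 CPM, -1.73), the glutamine carriers SLC1A5 (log2 ratio -1.27) and SLC38A2 (206 and 103 CPM), and SLC43A1 (0.368 and 0.875 CPM, 1.25). Of 13 genes of glutathione and ferroptosis, 3 were lower and 4 higher (median 0.32). Of 18 NRF2 targets, a list that holds SLC7A11 itself, 4 were lower and 7 higher, led by AKR1C2 (0.721 and 9.55 CPM, 3.73) and AKR1C1 (3.14 and 33.7 CPM, 3.42).

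TRIB3, SESN2 and DDIT3 act in feedback and cell fate. TRIB3 is a pseudokinase that ATF4 induces and that is known to bind ATF4 and AKT. It was at 52.0 CPM (51.0 to 53.1) and 16.9 CPM (16.4 to 17.5), 3.08-fold lower. SESN2, a leucine sensor that holds mTORC1 back, was at 23.2 CPM (22.5 to 23.8) and 11.3 CPM (10.8 to 11.7), 2.05-fold lower. DDIT3, which encodes the death-promoting factor CHOP, was at 23.2 CPM (22.5 to 23.8) and 36.2 CPM (35.4 to 36.9), 1.56-fold higher in RWPE-ERG-mAKT, just past the 1.5-fold size. It overlaps MARS and MBD6 on the opposite strand and AC022506.1 on its own strand, and the last had 0 UMIs in both libraries, which allows up to 0.0156 CPM and 0.0133 CPM.

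Of 12 measured genes on the list of mTORC1 regulators and sestrins, which holds SESN2, 6 were lower and 2 higher (median -0.55). TSC2, a brake on mTORC1, was at 21.5 and 11.1 CPM (-0.96), DDIT4, an mTORC1 inhibitor induced by stress, at 539 and 280 CPM (-0.95), and the mTORC1 activator RHEB at 86.2 and 252 CPM (1.55). Of 13 genes for tRNA synthetases and tRNA export, 6 were lower and 0 higher (median -0.55). They included XPOT (81.5 and 33.3 CPM, -1.29), EPRS (392 and 168 CPM, -1.22), CARS (65.3 and 29.3 CPM, -1.16) and AARS (68.8 and 31.6 CPM, -1.13).

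The lists of stress factors and stress targets held more higher than lower genes, though the counts were close in some of them. Of 11 genes in the list of ATF4 and its partner factors, 4 were higher and 1 lower, with ATF3 at 13.7 and 70.4 CPM (2.36), CEBPD at 61.2 and 188 CPM (1.62), FOSL1 at 39.1 and 85.3 CPM (1.13) and JDP2 at 41.1 and 12.2 CPM (-1.75). Of 21 measured other stress targets, 7 were higher and 4 lower, with HMOX1 at 0.923 and 6.59 CPM (2.84), CDKN1A at 32.9 and 104 CPM (1.66), ADM2 at 1.38 and 0.364 CPM (-1.93) and STC2 at 33.0 and 9.48 CPM (-1.80). Of 14 genes for eIF2alpha kinases, phosphatase subunits and eIF2B, 4 were higher and 3 lower, including PPP1R15A, the inducible phosphatase subunit, at 30.3 and 63.3 CPM (1.06) and PPP1R15B at 34.2 and 17.7 CPM (-0.95). Of 18 chaperones and targets of the endoplasmic reticulum branches, 6 were higher and 0 lower, among them MANF (37.7 and 87.2 CPM, 1.21) and SDF2L1 (29.6 and 62.2 CPM, 1.07). Of 14 autophagy targets, 4 were higher and 3 lower, among them MAP1LC3B (71.3 and 165 CPM, 1.21) and SQSTM1 (309 and 639 CPM, 1.05). MYC and ribosome biogenesis genes (15 measured, 1 higher and 1 lower) and G2/M genes (34, 3 higher and 1 lower) had medians of -0.07 and 0.00, and S phase genes (28, 6 higher and 2 lower) 0.23. These counts, and those of the lists in the paragraphs above, stand beside 20.3% higher and 32.1% lower of all genes. With ratios centred on the median, these shares were 25.6% and 26.4%, and the lists were not counted that way. All of these counts describe these 2 libraries only.

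**Figure D2:**
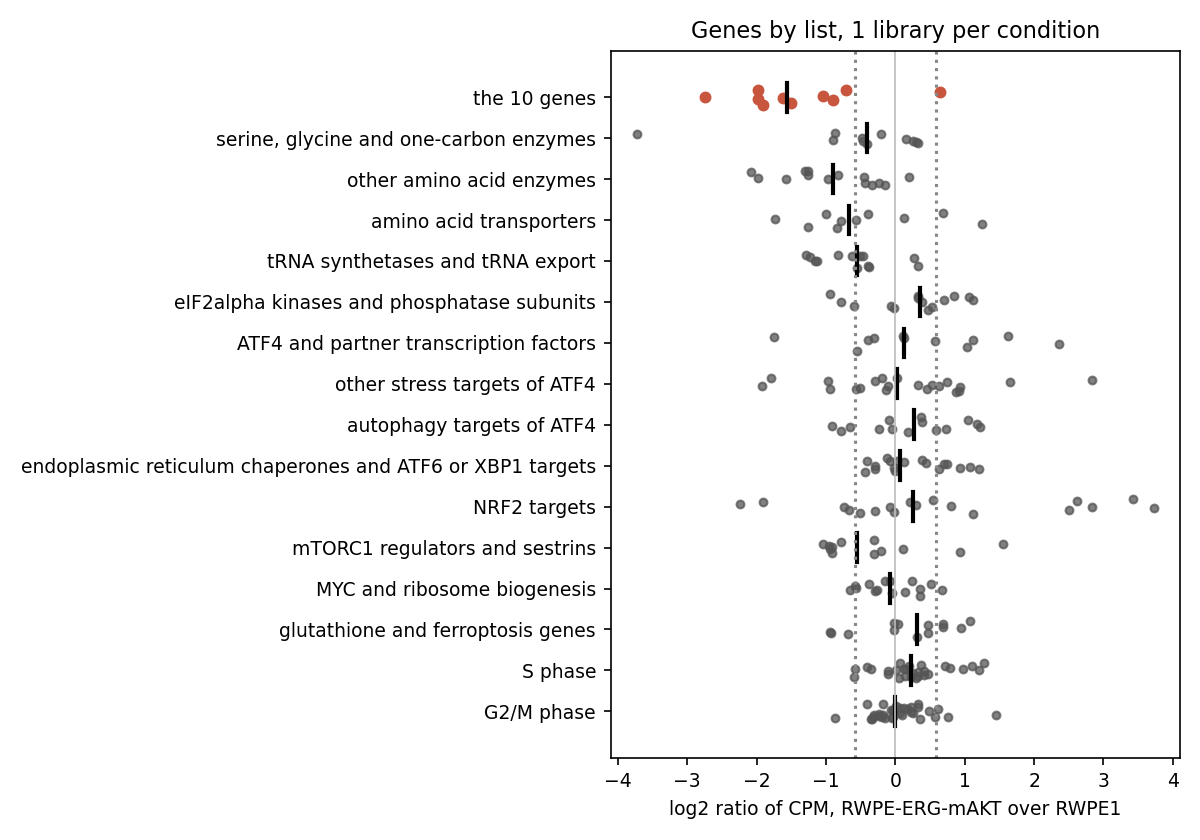
Log2 ratio of CPM, RWPE-ERG-mAKT over RWPE1, for each of the 10 target genes (red, top row) and each measured gene of the other lists (grey), with black bars at medians and dotted lines at 1.5-fold. The 10 genes have a median of -1.56 with DDIT3 alone on the right, the amino acid enzymes, transporters and tRNA synthetases have medians from -0.90 to -0.41, and the stress, chaperone and autophagy lists have medians from 0.02 to 0.27.

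The libraries differed in mitochondrial content, so the members were also read within bands of it, which were chosen after the data were seen. DDIT3 went down as this content went up within each library, mostly below 4%. Its level in RWPE1 went from 75.4 CPM in the 85 cells under 2% MT- UMIs to 51.2 CPM at 2 to 3%, 23.8 CPM at 3 to 4% and 20.0 CPM in the 3182 cells at 6 to 7.5%. In RWPE-ERG-mAKT it went from 56.6 CPM in 3218 cells under 2% to 33.4 CPM at 2 to 3%, 28.4 CPM at 3 to 4% and 25.9 CPM in 150 cells at 6 to 7.5%. Cells with little mitochondrial RNA thus held more DDIT3 in both libraries, and RWPE-ERG-mAKT had far more of those cells. Other members also went down between these end bands in RWPE1, among them TRIB3 (97.3 to 49.4 CPM) and CHAC1 (17.4 to 7.38 CPM). In RWPE-ERG-mAKT both went up (15.2 to 30.1 CPM and 2.69 to 5.18 CPM). SLC7A11 went up in both libraries (27.4 to 47.0 CPM and 11.9 to 20.7 CPM). With 3 wider bands, the log2 ratio of DDIT3 between the libraries was -0.40 (-0.57 to -0.23) under 2.5%, 0.19 (0.11 to 0.27) from 2.5 to 5% and 0.38 (0.17 to 0.58) from 5 to 7.5%. None of these reached 1.5-fold, so the higher DDIT3 of RWPE-ERG-mAKT was not seen at that size within these 3 bands. Its sign turned in the lowest band, where RWPE1 had 195 cells. Among the cells left out for 7.5% or more MT- UMIs (1575 and 107), the log2 ratio of DDIT3 was 0.63 (0.04 to 1.17), which is past 1.5-fold with a wide interval. With the study's limits of 200 to 2500 genes, which leave 362 and 2775 cells, it was -0.40 (-0.80 to 0.04). The part of mitochondrial content in this difference beyond these values was not tested.

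The other 9 members were lower in RWPE-ERG-mAKT in all 3 of the wider bands, although the size moved. From 5 to 7.5% (6378 and 526 cells), SHMT2 (log2 ratio -0.37), MTHFD2 (-0.52) and SESN2 (-0.20) fell short of the 1.5-fold size. TRIB3 had log2 ratios of -2.58, -1.55 and -0.79 from the lowest band to the highest, PSAT1 -2.41, -1.86 and -1.30, and SLC7A11 -1.52, -1.89 and -1.62. SESN2 had -1.31, -0.85 and -0.20, and the last interval (-0.44 to 0.02) reached above 0. Among cells with 7.5% or more MT- UMIs (1575 and 107), which were left out here, it was 0.16 (-0.44 to 0.70). Within RWPE-ERG-mAKT, PSAT1 went from 28.6 CPM under 2% to 69.7 CPM at 6 to 7.5% and SESN2 from 8.48 to 23.1 CPM, against 143 to 139 CPM and 16.4 to 24.2 CPM in RWPE1. In bands of total UMIs or of detected genes, all 9 stayed lower and DDIT3 stayed higher, at log2 ratios from 0.29 in cells over 30000 UMIs to 1.02 in cells of 5000 to 10000 UMIs.

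**Figure D3:**
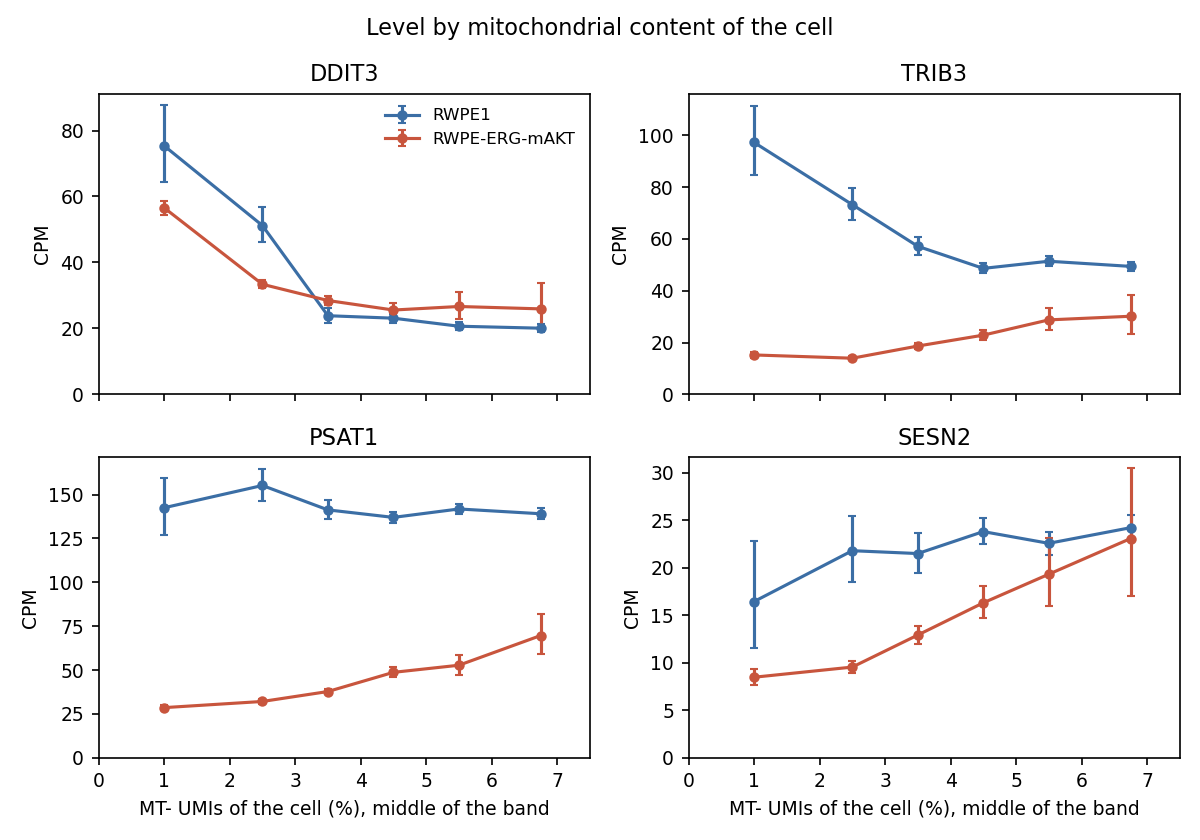
CPM of DDIT3, TRIB3, PSAT1 and SESN2 in cells grouped by percent of MT- UMIs, plotted at the middle of each of 6 bands, in RWPE1 (blue) and RWPE-ERG-mAKT (red), with 95% intervals for counting error. DDIT3 goes down from left to right in both libraries (75.4 to 20.0 CPM and 56.6 to 25.9 CPM) and the lines cross, whereas the lines of TRIB3 and PSAT1 stay apart and those of SESN2 meet at the right (24.2 and 23.1 CPM).

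To separate how many cells had a gene's RNA from how deeply they were read, each cell was thinned to 5000 UMIs. This left 9967 cells of RWPE1 and 14134 of RWPE-ERG-mAKT, since 6 cells of the latter were shallower. PSAT1 was found in 46.2% of RWPE1 cells (45.2 to 47.1%) and 14.7% of RWPE-ERG-mAKT cells (14.1 to 15.2%). PHGDH was found in 36.8% and 15.8%, MTHFD2 in 46.7% and 28.3%, and SHMT2 in 30.3% and 19.8%. SLC7A11 was found in 18.8% and 5.89%, TRIB3 in 21.1% and 7.37%, SESN2 in 11.3% and 5.00%, CHAC1 in 4.33% and 1.00%, and ASNS in 1.58% and 0.219%. DDIT3 was found in 9.45% (8.88 to 10.0%) and 15.0% (14.4 to 15.6%), and ATF4 in 40.8% and 41.2%, whose intervals overlapped. The shares kept the order of the levels between the libraries for all members. The highest mean of a member at this depth was 0.709 UMIs per cell (PSAT1 in RWPE1). At such means a share largely follows the mean, so the shares are not a result separate from the levels. Both libraries are of 1 epithelial line, so no cell type that should lack these genes was at hand, and free RNA cannot be told apart from a cell's own at the low shares.

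Most positive cells held a single molecule. For DDIT3, 27 cells of RWPE1 (0.271%) and 106 cells of RWPE-ERG-mAKT (0.750%) had 3 or more UMIs after thinning, with up to 9 and 10 in 1 cell. For PSAT1 it was 548 cells (5.50%) against 55 (0.389%), and for SLC7A11 140 (1.40%) against 15 (0.106%). Variance over mean is 1 for counts that scatter at random, and its median over genes in a middle range of mean UMIs was 1.03 and 1.04. ASNS in both libraries and CHAC1 in RWPE-ERG-mAKT lay below that range. The members least even among cells were SLC7A11 in RWPE1 (1.60) and ASNS (1.57) and DDIT3 (1.49) in RWPE-ERG-mAKT, and the ASNS value rests on 31 positive cells, 1 of which held 5 UMIs. SHMT2 (1.04 and 1.04) and MTHFD2 (1.05 and 1.08) were close to the median of the genes in the middle range. Before thinning, the 1% of cells with most DDIT3 held 18.5% and 13.3% of its UMIs, against 5.23% and 11.2% for PSAT1. This share depends on how many UMIs a gene has, and in RWPE1 PSAT1 had 27043 against 4465 for DDIT3. SESN2, with 4464 UMIs in RWPE1, held 9.72% there.

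In RWPE1 a cell had UMIs of a median of 2 members, and in RWPE-ERG-mAKT of 1. No member was found in 10.2% of RWPE1 cells and 31.4% of RWPE-ERG-mAKT cells. At the other end, 760 RWPE1 cells (7.63%) had 5 or more members, where the product of the separate shares gives 3.88%. In RWPE-ERG-mAKT these were 110 cells (0.778%), where the product gives 0.161%. The members were thus found together more often than their separate shares give, in both libraries. Sets of other genes were not read in this way.

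**Figure D4:**
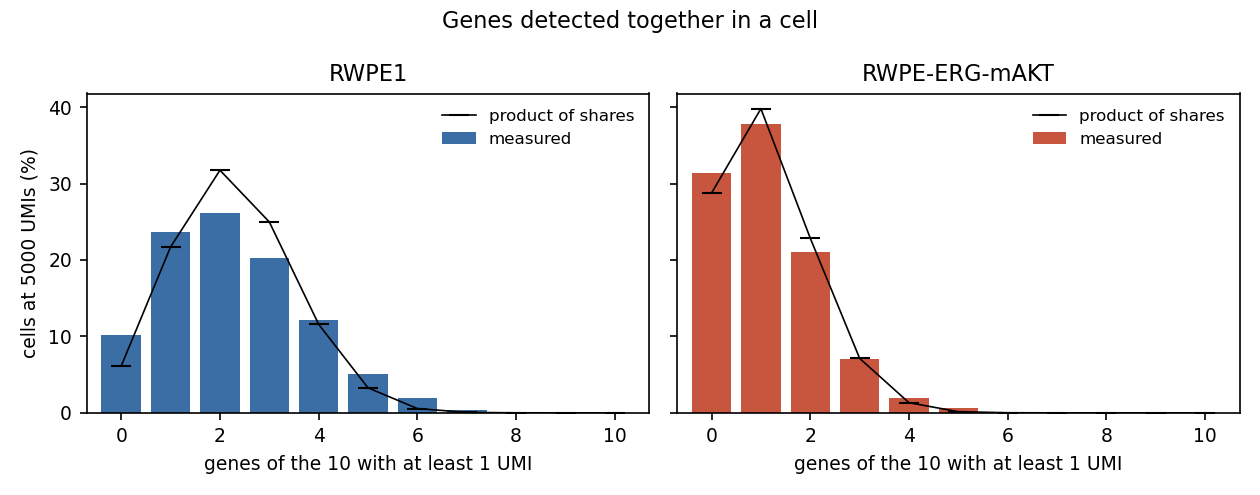
Percent of cells, thinned to 5000 UMIs, by how many of the 10 genes had at least 1 UMI, with bars for measured cells and black marks for the product of the separate shares, in RWPE1 (left) and RWPE-ERG-mAKT (right). Bars exceed the marks at 0 genes (10.2% against 6.13%, and 31.4% against 28.8%) and from 4 genes up, and fall short of them at 2 and 3 genes.

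Pearson correlations of log(1 + UMIs) over the thinned cells describe which members went together. The cells of a library share 1 preparation and 1 depth, and with so few molecules per cell the coefficients are small. Of 45 pairs, 45 were above 0 for RWPE1 (median r 0.055) and 43 for RWPE-ERG-mAKT (median 0.038). At 0.1 or more there were 8 and 1 pairs. Pairs of other genes were not counted, so whether these counts are particular to the members cannot be told. PSAT1 with TRIB3 was the highest pair in both, at 0.189 over 9967 cells and 0.123 over 14134 cells. In RWPE1 it was followed by TRIB3 with SLC7A11 (0.142), PSAT1 with SLC7A11 (0.130), CHAC1 with SLC7A11 (0.127), PSAT1 with PHGDH (0.123), TRIB3 with DDIT3 (0.122), PHGDH with TRIB3 (0.114) and PHGDH with SLC7A11 (0.112). For single pairs, the cells with both genes were also counted. CHAC1 and SLC7A11 met in 168 RWPE1 cells, where the product of shares gives 81.3, and in 28 RWPE-ERG-mAKT cells against 8.36. PSAT1 and TRIB3 met in 1261 RWPE1 cells against 970 and in 269 RWPE-ERG-mAKT cells against 153. Over the 45 pairs, the median ratio of counted cells to that product was 1.24 for RWPE1 and 1.30 for RWPE-ERG-mAKT. The lower r of RWPE-ERG-mAKT, where most members had fewer UMIs, thus cannot be read as weaker coexpression. SHMT2 was the member least tied to the others, with no pair above 0.05 in either library. These values depend on depth and on a few cells. At 10000 UMIs per cell 17 and 7 pairs reached 0.1, and at 2000 UMIs none did in either library. Without the 1% of cells with the most member UMIs, and all cells tied with the last of them, 5 and 0 did.

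**Figure D5:**
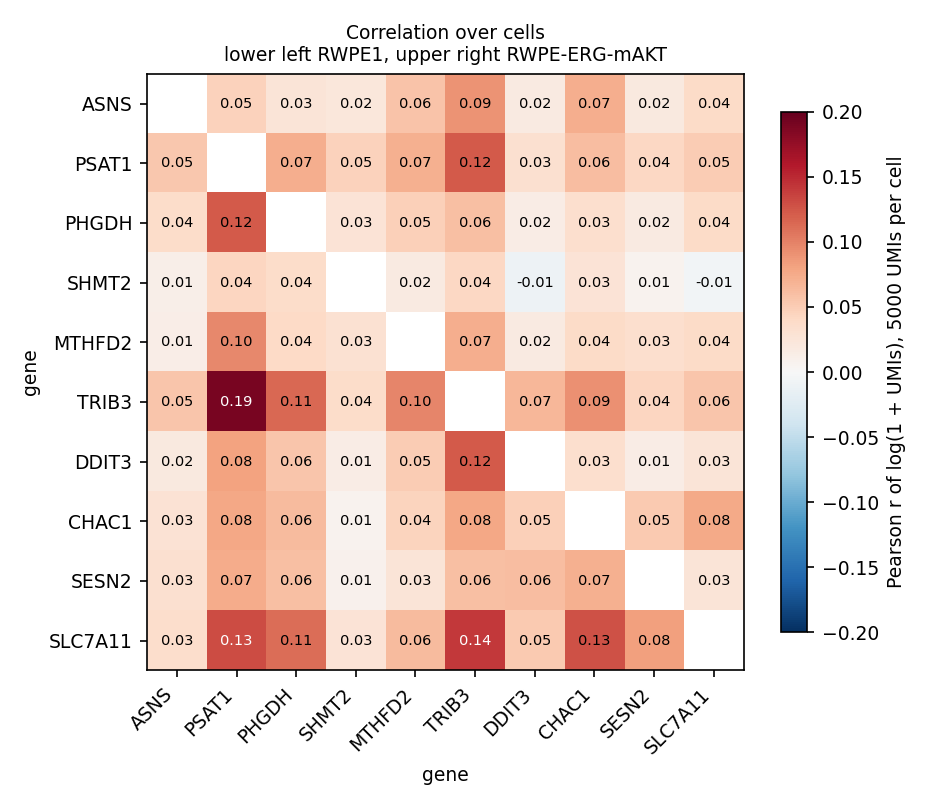
Pearson r over cells between each 2 of the 10 genes at 5000 UMIs per cell, with RWPE1 below the diagonal and RWPE-ERG-mAKT above it, on a colour scale from -0.2 to 0.2. The strongest cells of the plot are TRIB3 with PSAT1 (0.19 and 0.12), and the rows of SHMT2 and ASNS are the palest in RWPE1.

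Cells with TRIB3 give the same description without a coefficient. In RWPE1, 2102 cells had a TRIB3 UMI, and 60.0% of these had PSAT1 against 42.5% of the rest, 28.2% had SLC7A11 against 16.3%, and 14.1% had DDIT3 against 8.20%. In RWPE-ERG-mAKT, 1041 cells had a TRIB3 UMI, and 25.8% had PSAT1 against 13.8%, 9.13% had SLC7A11 against 5.63%, and 20.3% had DDIT3 against 14.5%. Cells with DDIT3 differed less in the metabolic members of RWPE-ERG-mAKT. There, 16.5% of 2114 DDIT3-positive cells had PSAT1 against 14.3% of the rest and 18.5% had SHMT2 against 20.0%, while in RWPE1 it was 55.0% of 942 cells against 45.2% and 31.6% against 30.1%.

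ATF4's own messenger had small r with its targets in single cells, though not as small as most ranked genes had. Its r with the summed members was 0.094 and 0.054, where the median of all ranked genes was 0.002 in both libraries. With single members the r of ATF4 ran from 0.008 to 0.073 and from -0.003 to 0.064. The list of tRNA synthetases and tRNA export had r of 0.306 and 0.186 with the summed members. That list sums 13 genes at 1855 and 1329 CPM, so its r cannot be set against that of a single gene such as ATF4. The r of the summed members with ERG was -0.010 and 0.005, with the S phase list 0.059 and 0.073, with the G2/M list 0.015 and 0.003, and with the log of the cell's total UMIs -0.051 and 0.008.

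The genes that are no members and went most with the summed members included several known from the same response. In RWPE1 they were NUPR1, a small stress-induced chromatin protein (r 0.254), UPP1, a uridine phosphorylase (0.236), EIF1 (0.224), GARS (0.197), DDIT4 (0.193), SERPINE2 (0.190), SARS (0.185), FN1 (0.184), ARHGAP26 (0.181), VIM (0.175), STC2 (0.172) and DMGDH (0.167), and 1 gene in that order is not reported here. In RWPE-ERG-mAKT they were DMGDH, a mitochondrial dehydrogenase of choline breakdown (0.140), AARS (0.128), STC2 (0.123), GARS (0.122), DDIT4 (0.113), GDF15 (0.110), NUPR1 (0.108), EPRS (0.105), HSPA9 (0.089), SNHG12 (0.088), EIF4EBP1 (0.086) and IARS (0.086). NUPR1, GARS, DDIT4, STC2 and DMGDH are in both orders. Of the genes ranked, 77 of 11233 and 8 of 10908 had r of 0.1 or more. DMGDH, at 42.0 and 12.1 CPM (log2 ratio -1.80), and STC2, also at -1.80, had ratios near that of SLC7A11 (-1.91), whereas UPP1 went the other way at 175 and 481 CPM (1.46).

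FN1 and VIM, which mark mesenchymal cells, appear in the RWPE1 order only. The summed VIM, CDH2 and FN1 of a cell had r of 0.243 with SLC7A11, 0.168 with PHGDH and 0.126 with CHAC1 in RWPE1, and 0.002, -0.006 and -0.017 in RWPE-ERG-mAKT. PSAT1 (0.040), MTHFD2 (0.018), SHMT2 (0.013) and DDIT3 (-0.006) had little of this in RWPE1.

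The genes nearest to DDIT3 were also read, a choice made after its level was seen. In RWPE1 they were TRIB3 (0.122), EIF1 (0.094), GDF15 (0.094), ATF3 (0.093), SNHG12 (0.092), UPP1 (0.091), GADD45A (0.091) and NUPR1 (0.083). In RWPE-ERG-mAKT they were SQSTM1, the autophagy receptor p62 (0.191), GULP1 (0.156), EIF1 (0.130), UPP1 (0.127), the non-coding GAS5 (0.117), NUPR1 (0.108), HIST1H1C (0.106) and SNHG7 (0.102), with no member among these 8. SQSTM1 (log2 ratio 1.05), GULP1 (11.5 and 41.0 CPM, 1.83) and UPP1 were themselves higher in RWPE-ERG-mAKT. The r of DDIT3 with percent MT- UMIs was -0.112 in RWPE-ERG-mAKT and -0.050 in RWPE1, and its correlates were not read within bands of that content.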

How the data were processed

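Levels of 10 ATF4 target genes were read in 2 droplet libraries, RWPE1 and RWPE-ERG-mAKT. The authors quantified reads by Cell Ranger 7.1.0 against hg38, so the deposited values are raw UMI counts of each gene in each barcode. Whether intronic reads were counted is not given in the sources used here. The members and gene lists were chosen with earlier results of these data known.

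Cells with over 2500 genes and under 7.5% MT- UMIs were kept, in place of the 200 to 2500 genes in the study's methods, which retain 362 and 2775 cells. Doublets were not called, and cells of the highest UMI counts were left out as an alternative. UMIs were summed per library to CPM with exact Poisson intervals, log2 ratios carry exact conditional binomial intervals, and shares carry Clopper-Pearson intervals, all at 95%. One UMI was worth 0.00519 CPM in the RWPE1 library and 0.00444 CPM in the other, and a count of 0 was given the limit of 3 counts. A gene was called at 1.5-fold among genes with at least 100 UMIs. Cells were thinned without replacement (seed 1) to 5000 UMIs for shares and correlations. Scripts were tested on simulated data. Named genes were the members, ATF4, up to 4 genes of each list by the size of the log2 ratio, and the 12 genes with the highest correlation among those in at least 2% of cells. Exceptions are marked in the text. One gene that this rule names is not reported here. GENCODE release 29 held 34616 of 36601 identifiers, and promoter sequences were from RefSeq. Python 3.11.15 was used with scipy 1.17.1, matplotlib 3.10.9, numpy 2.4.6 and pandas 2.3.3.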

Additional observations from a re-analysis of the deposited data

How the results depend on the processing

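The count of 9 lower members was between 7 and 9 under every alternative run for it, and 9 were lower with the study's limits on genes. The band of 5 to 7.5% MT- UMIs was not among these alternatives. In that band SHMT2, MTHFD2 and SESN2 fell short of the 1.5-fold size. The 1 higher member, DDIT3, became 0 with the study's limits, with 2-fold in place of 1.5-fold, and with cells of 2.5 to 5% MT- UMIs only (chosen after seeing the data). With the study's limits DDIT3 had a log2 ratio of -0.40 (-0.80 to 0.04), so its sign turned. SESN2 turned to 0.16 (-0.44 to 0.70) in cells with 7.5% or more MT- UMIs, where RWPE-ERG-mAKT had 107 cells. The cause of these turns was not tested. Of 111 log2 ratios of single members under 12 alternatives, 64 stayed within the main interval, 45 moved beyond it with the same sign and 2 turned. Leaving out the brain-type barcodes turned no sign, and no share turned in direction at 2000 or 10000 UMIs per cell.

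The count of pairs with r of 0.1 or more, not made for other genes, was 8 for RWPE1 and 1 for RWPE-ERG-mAKT. It became 0 and 0 at 2000 UMIs per cell, and 17 and 7 at 10000 UMIs. Without the 1% of cells with the most member UMIs it became 5 and 0. That cut also left out all cells tied at its edge, and a cut on the sum itself lowers correlations. In RWPE-ERG-mAKT it became 0 with Spearman's correlation, 3 in cells low in cell cycle genes, and 8 of 28 pairs with values in the 107 cells at 7.5% or more MT- UMIs. No paired analysis was possible because each condition had 1 library. Depth limits ASNS and CHAC1 most, with 105 and 475 UMIs in RWPE-ERG-mAKT.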
